A study of Mus musculus with 4 samples.

Results

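Gm47782, 2610035D17Rik and Nxpe2 are 3 of the 32285 genes counted in mouse blood cells, and all 3 were found. They were chosen because their molecules in B cells were fewer at 20 than at 12 months of age in both strains of the study. The selection used the B cell counts themselves and gave no numerical limit, so the age difference in B cells is described here and not tested. Gm47782 (ENSMUSG00000114794) and 2610035D17Rik (ENSMUSG00000087259) are annotated as long intergenic non-coding RNAs. Nxpe2 (ENSMUSG00000032028) is protein-coding. In the GENCODE M21 annotation of GRCm38, the build that the submitters' notes call mm10, Gm47782 lies at chr14:15697956-15911315, 2610035D17Rik at chr11:113043895-113201838 and Nxpe2 at chr9:48318006-48353454, each on the minus strand.

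Many long non-coding RNAs are spliced and polyadenylated like messenger RNAs, and many are seen in few cell types. NXPE proteins share a neurexophilin-like domain and a PC-esterase domain. Circulating mouse B cells are mostly mature follicular cells, which carry CD23 (Fcer2a), IgD (Ighd) and complement receptor 2 (Cr2), beside recent immigrants from bone marrow marked by Vpreb3 and Cd93 and smaller innate-like and memory populations.

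From its title, the study asked how strain and age bear on disc herniation and pain-related behaviour in mice. Mononuclear cells from blood of 2 inbred strains, BL/6 and SM/J, aged 12 or 20 months, were profiled by 10x Genomics 3′ single-cell RNA sequencing. No genetic change or treatment is named for any group. Both ages of a strain were multiplexed in 1 sample, and the deposited data divide the cells into 4 matrices, 1 per strain and age, called libraries below. Each library carries 3 tag oligos, and cells sharing a tag are called an aliquot. What a tag stands for is not stated, so aliquots were not treated as biological replicates, and no test between ages was run. A strain and its 10x run cannot be told apart, nor can strain and the mapping of SM/J reads to a reference built from another strain.

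The libraries held 2580 to 3551 cells with 14250603 to 30627357 unique molecular identifiers (UMIs, counted molecules), and 2407 to 3398 cells were kept. No barcode was shared between the ages of a strain, and 1 to 3 were shared between libraries of different strains. B cell-like cells, named from marker genes, numbered 2004 (BL/6, 12 months), 951 (BL/6, 20 months), 1282 (SM/J, 12 months) and 1611 (SM/J, 20 months). All 8 B cell markers were found in each library, at a summed level of 6890 to 10900 CPM (a gene's UMIs scaled so that all UMIs of the class in a library make up the same total, 1e6). Markers of T cells summed to 12.2 to 46.9 CPM in these cells. Markers of nonclassical monocytes summed to 44.5 to 140 CPM. Plasma cell markers summed to 352 and 342 CPM in BL/6 and to 947 and 1460 CPM in SM/J. The list for plasmacytoid dendritic cells summed to 363, 389, 712 and 808 CPM in the same order, with its defining genes Siglech and Klk1 at 0 in both BL/6 libraries and all 6 of its genes found in SM/J. The part of these cells' RNA in the results was not tested. The median depth of a B cell-like cell was 3630.5 and 3430 UMIs in BL/6 but 4196 and 9628 UMIs in SM/J.

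A sequence link between the members was looked for after their levels had been seen. An annotated transcript of Gm47782 and 2 of 2610035D17Rik begin with nearly the same stretch, which is shown to let the shared letters be compared. It occupies bases 1 to 62 of the Gm47782 transcript (chr14:15911254-15911315) and bases 2 to 63 of the 2610035D17Rik transcripts (chr11:113173015-113173076), both in exon 1 and both read from the minus strand of GRCm38. Capitals mark the bases that differ.
Gm47782: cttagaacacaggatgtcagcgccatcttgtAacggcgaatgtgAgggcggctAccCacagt
2610035D17Rik: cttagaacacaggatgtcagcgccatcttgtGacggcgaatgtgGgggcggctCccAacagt
Of the 62 bases, 58 were identical (93.5%). The differences, counted from 1 at the 5′ end of the stretch with the base of Gm47782 first, were A32G, A45G, A54C and C57A. Nxpe2 had no match.

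Among 141767 annotated mouse transcripts, 9 transcripts of 8 genes carried a match within their first 20 bases, and 63 genes carried one anywhere. Of the 6 genes other than the members, only Nrros, which encodes a negative regulator of reactive oxygen species, and Mier3 had more than 7 UMIs in B cell-like cells of any library. Nrros stood at 122 and 134 CPM in BL/6 at 12 and 20 months and at 76.9 and 44.4 CPM in SM/J. Mier3 stood at 14.4, 14.7, 13.1 and 6.96 CPM in the same order. Neither gene had the lower level at 20 months in BL/6 that both members had. The libraries read transcript 3′ ends, so which annotated start was used was not measured.

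RefSeq promoter sequences (GRCm38.p6) were found for 2610035D17Rik and Nxpe2, and not for Gm47782. They are shown because they mark the other annotated start of 2610035D17Rik, which lies upstream of the shared stretch, and a repeat before an annotated start of Nxpe2. Some annotated transcripts of Nxpe2 begin further upstream, at chr9:48353454, and for those the printed bases lie inside the gene. Each is the 250 bases before the start, chr11:113201839-113202088 and chr9:48340899-48341148, minus strand. Capitals mark matches, on either strand, to TATAAA and CCAAT in the first and to GGAGCACTATCA in the second, with no overlap between matches. GGAGCACTATCA is the longest run of letters found at least 3 times in the 250 bases of Nxpe2, so its repeat there is by choice.
2610035D17Rik: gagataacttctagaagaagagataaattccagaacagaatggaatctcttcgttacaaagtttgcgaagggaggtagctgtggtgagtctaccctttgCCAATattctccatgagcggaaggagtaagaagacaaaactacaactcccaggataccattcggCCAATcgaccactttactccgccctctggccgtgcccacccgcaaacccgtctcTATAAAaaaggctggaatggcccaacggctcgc
Nxpe2: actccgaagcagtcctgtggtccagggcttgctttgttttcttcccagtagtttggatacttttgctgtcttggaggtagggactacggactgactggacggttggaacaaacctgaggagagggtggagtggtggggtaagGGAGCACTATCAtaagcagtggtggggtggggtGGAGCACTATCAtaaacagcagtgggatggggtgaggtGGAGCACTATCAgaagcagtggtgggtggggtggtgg
TATAAA occurred once in the first sequence and in 12.4% of 32851 promoters of this length, and CCAAT occurred at 2 places there and in 33.8% of promoters. GGAGCACTATCA was held by 2 of the 32851 promoters (0.00609%), that of Nxpe2 included. These are letter matches and say nothing of which proteins bind.

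In B cell-like cells Gm47782 had the steepest difference between ages. It gave 1156 UMIs at 12 months and 29 at 20 months in BL/6, and 292 and 92 UMIs in SM/J. Scaled to CPM with exact Poisson 95% intervals, these were 134 (126 to 142), 7.63 (5.11 to 11), 43.4 (38.6 to 48.7) and 4.71 (3.80 to 5.78) CPM. All intervals here cover counting error only. Both 20-month libraries were low and both 12-month libraries high, and BL/6 at 12 months stood above SM/J at the same age. The log2 ratio of 20 over 12 months, on the log2(CPM + 1) scale, was -3.97 (-4.47 to -3.49) for BL/6, or 17.6-fold lower CPM, and -2.96 (-3.26 to -2.66) for SM/J, or 9.22-fold lower CPM. Its aliquots lay within 124 to 145 CPM (12 months) and 4.90 to 9.72 CPM (20 months) for BL/6, and within 39.5 to 48.6 CPM and 3.13 to 5.77 CPM for SM/J.

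The 4 libraries, always in the order BL/6 at 12 months, BL/6 at 20 months, SM/J at 12 months and SM/J at 20 months, gave 1679, 317, 439 and 308 UMIs of 2610035D17Rik. Its levels were 195 (186 to 204), 83.4 (74.5 to 93.1), 65.3 (59.3 to 71.7) and 15.8 (14.1 to 17.6) CPM. The level at 20 months in BL/6 was above that at 12 months in SM/J. The log2 ratio of 20 over 12 months was -1.21 (-1.39 to -1.04) for BL/6, which is 2.34-fold lower, and -1.98 (-2.19 to -1.78) for SM/J, which is 4.14-fold lower. Its aliquots spanned 179 to 213 CPM and 73.5 to 102 CPM at the 2 ages of BL/6, and 61.1 to 71.3 CPM and 9.56 to 19.9 CPM at those of SM/J.

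Nxpe2 gave 440, 93, 86 and 91 UMIs in the same order. Its levels were 51.0 (46.4 to 56.0), 24.5 (19.7 to 30), 12.8 (10.2 to 15.8) and 4.66 (3.75 to 5.72) CPM. The UMI number in SM/J was nearly equal at both ages, and the lower CPM at 20 months went with a class total of 19532832 UMIs against 6723418. The log2 ratio was -1.03 (-1.36 to -0.72) for BL/6, or 2.09-fold lower, and -1.29 (-1.67 to -0.90) for SM/J, or 2.75-fold lower. Its aliquots spanned 42.8 to 60.1 CPM and 20.2 to 33.5 CPM at the 2 ages of BL/6, and 10.7 to 15.7 CPM and 4.29 to 5.14 CPM at those of SM/J. In no member did the aliquots of the 2 ages overlap within a strain. The members were chosen on this contrast, and the aliquots of an age share a library. How many of all genes were separated in this way was not counted, so nothing is read from it. The SM/J ratios of 2610035D17Rik and Nxpe2 depended on which cells counted as B cell-like: with each strain clustered alone they were 0.85 and 0.26, and Gm47782 stood at -1.62. With cells gated by marker UMIs and no clustering they were -0.35 and -0.81.

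**Figure D1:**
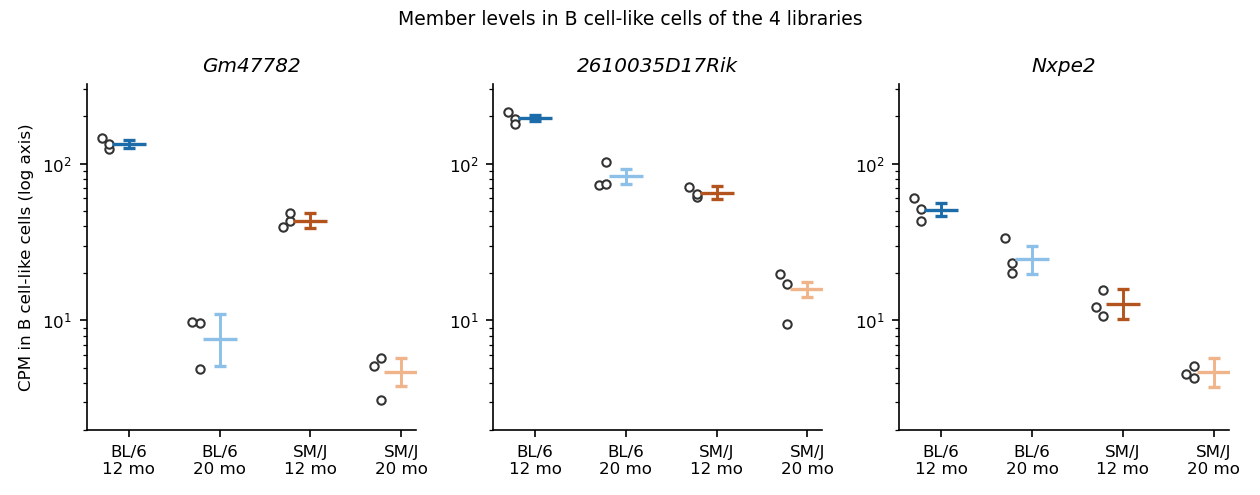
Levels of the 3 genes in B cell-like cells of each library, in CPM on a log axis. Horizontal marks with bars are the library value and its 95% Poisson interval, and open circles are the 3 tagged aliquots. For each gene the circles of the 20-month library lie below those of the 12-month library of the same strain, as in Gm47782, with 4.90 to 9.72 against 124 to 145 CPM in BL/6. The genes were chosen on this contrast, and the aliquots of an age share a library.

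To place these values, all genes counted in B cell-like cells were ranked under 1 filter. It asked for 100 or more UMIs over both ages, a mean level of 20 CPM or more, and a level not under 0.25 times that of whichever other class was highest. A log2 ratio of 20 over 12 months of -1 or less was reached by 8 of 4935 genes in BL/6 (0.162%) and by 184 of 4981 genes in SM/J (3.69%). All 3 members were among the 8 in BL/6, at ranks 1, 5 and 8 from the lowest. In SM/J, Gm47782 ranked 7 and 2610035D17Rik 29, and Nxpe2 did not pass the filter because its mean level was under 20 CPM. In both strains at once the limit was passed by 3 of 4168 genes (0.072%), which were Gm47782, 2610035D17Rik and Pmaip1, the gene of the pro-apoptotic protein NOXA, at -1.24 and -1.23. Nothing is read from these shares, since the members were chosen on the same contrast. Nxpe2 stood just past the limit in BL/6, at -1.03. The median over all genes passing was 0.05 in BL/6 and -0.05 in SM/J, and TMM scaling factors shifted CPM ratios by -0.07 in BL/6 and 0.16 in SM/J on the log2 scale, before the pseudocount.

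The members differed in how their molecules were spread over cells. In BL/6 at 12 months, 405 of 2004 B cell-like cells had a Gm47782 UMI (20.2%, Clopper-Pearson interval 18.5% to 22.0%) and a positive cell held 2.85 UMIs on average, with up to 18. At 20 months 17 of 951 cells had one (1.79%, 1.04% to 2.85%), with a mean of 1.71 and at most 3. Both the share of positive cells and the number per positive cell were thus lower. In SM/J the 12-month share was 9.59% (8.04% to 11.3%) and the 20-month share 3.10% (2.31% to 4.07%), with 2.37 and 1.84 UMIs per positive cell and maxima of 17 and 14. Classical monocyte-like cells, at median depths of 6885 to 8657 UMIs, gave no Gm47782 UMI in any library.

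Cells with 5 or more Gm47782 UMIs were few but held much of the count. In BL/6 at 12 months 73 such cells held 46.8% of the gene's UMIs, and in SM/J at 12 months 12 cells held 35.6%. At 20 months there were 0 such cells in BL/6 and 3 in SM/J. For 2610035D17Rik the corresponding cells numbered 63, 4, 16 and 10, with 23.7%, 7.89%, 21.6% and 20.8% of its UMIs. For Nxpe2 they numbered 4, 0, 0 and 0.

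Within single clusters of a library (described further on), the UMIs of Gm47782 were uneven over cells when set beside genes of like level. The variance of its UMIs over the 1150 cells of cluster 0 in BL/6 at 12 months was 3.91 times the mean, rank 3 from the highest of 1381 genes whose mean was within a factor of 2, whose median was 1.2. In cluster 6 of SM/J it was 4.37 at 12 months, rank 3 of 1617, and 3.92 at 20 months, rank 4 of 2197. In SM/J cluster 6 its share of positive cells was 19.7% at 12 months and 17.3% at 20 months. In cluster 0 of BL/6 at 20 months, with 22 UMIs, it was 2.23 (rank 20 of 3885), and in cluster 1, with 7 UMIs, 1.25 (rank 716 of 3264), where its spread was that of many other genes. 2610035D17Rik had 2.05 in cluster 0 of BL/6 at both ages, rank 22 of 1126 and 20 of 2299. Nxpe2 had 1.58 and 1.61, ranks 57 of 3450 and 72 of 3912.

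**Figure D2:**
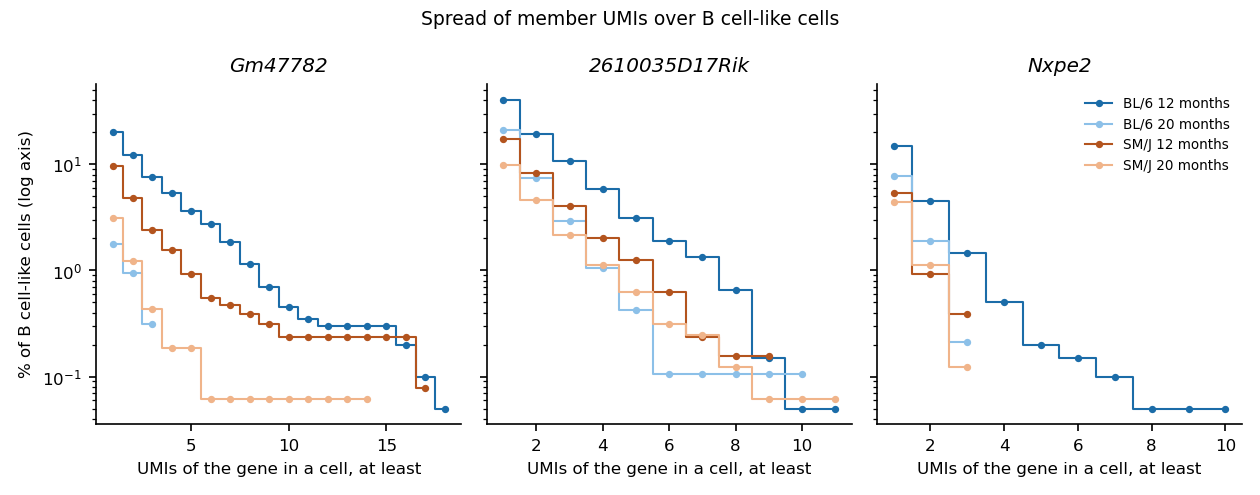
Share of B cell-like cells, in percent on a log axis, that held at least the number of UMIs on the horizontal axis, for each gene and library. The line of Gm47782 in BL/6 starts at 20.2% and reaches 18 UMIs at 12 months, and starts at 1.79% and ends at 3 UMIs at 20 months. The lines of Nxpe2 end at 3 UMIs in 3 of the libraries.

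For 2610035D17Rik 40.4% (38.3% to 42.6%) and 20.9% (18.4% to 23.7%) of B cell-like cells of BL/6 had a UMI at 12 and 20 months, and 17.4% (15.4% to 19.6%) and 9.75% (8.34% to 11.3%) of those of SM/J. The share in classical monocyte-like cells was 14.0%, 7.74%, 0.885% and 0% in the same order. For Nxpe2 the B cell shares were 14.9% (13.4% to 16.6%), 7.68% (6.06% to 9.56%), 5.38% (4.21% to 6.76%) and 4.41% (3.46% to 5.53%), against at most 1% in classical monocyte-like cells. SM/J cells at 20 months were deeper, so cells were also thinned to 1000 UMIs each, leaving out 1 to 6 B cell-like cells per library. Thinned shares in BL/6 were 10.0% and 0.738% for Gm47782, 16.4% and 6.33% for 2610035D17Rik and 4.74% and 2.22% for Nxpe2. In SM/J they were 4.55% and 1.12%, 4.62% and 3.48%, and 1.25% and 0.622%. The thinned intervals of 2610035D17Rik in SM/J, 3.54% to 5.92% and 2.64% to 4.50%, overlapped between ages, as did those of Nxpe2.

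B cell-like cells fell into 9 clusters, most of them held by 1 strain. Clusters 0 and 1 held 57.4% and 21% of the BL/6 cells at 12 months and 52.7% and 20.4% at 20 months, and cluster 6 held 43.1% and 14.7% of the SM/J cells. These 3 clusters had high follicular genes, with Fcer2a at 307 CPM in cluster 0 of BL/6 at 12 months and at 254 CPM in cluster 6 of SM/J. Clusters 7 (BL/6) and 21 (SM/J) had higher Bhlhe41, a regulator of B-1 cells, than these 3, at 90.8 and 87.8 CPM at 12 months. Their Fcer2a was at 25.6 and 18.5 CPM. Bhlhe41 was also high in other SM/J clusters, at 113 CPM in cluster 25 at 12 months. At 20 months it was at 127 and 89.1 CPM in clusters 26 and 20. Among other B-1 genes, Zbtb32 stood at 47.6 and 85.3 CPM in clusters 7 and 21 at 12 months, and Cd5 at 4.94 and 1.61 CPM. Cluster 13 had Vpreb3 at 1150 CPM and Cd93 at 55.3 CPM in BL/6 at 12 months. Cluster 25, led by Fras1, held 32.0% and 5.90% of the SM/J cells, and cluster 26, led by Zcwpw1, 1.17% and 52.4%. Clusters 20 and 26 each had UMIs of 7 of the 8 B cell markers by the rule used to name them, and the others of all 8. All 3 members were among the genes the clustering used.

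In BL/6 the level at 20 months was below that at 12 months in each of the 4 clusters with 50 or more cells at both ages, though some counts were too few to tell them apart. Gm47782 stood at 171 and 13.3 CPM in cluster 0 (log2 ratio -3.59, -4.22 to -3.02) and at 222 and 8.17 CPM in cluster 1 (-4.61, -5.71 to -3.63). It was much lower already at 12 months in cluster 7, where 24 UMIs (10.8 CPM) at 12 months stood against 0 UMIs at 20 months. That is at least 2.69-fold lower, with 3 UMIs in the library as the floor. In cluster 13 it gave 1 and 0 UMIs. Its molecules in BL/6 thus lay in the follicular-gene clusters at both ages.

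2610035D17Rik was present in all these BL/6 clusters. It stood at 209 and 100 CPM in cluster 0 (-1.05, -1.30 to -0.81), 284 and 81.7 CPM in cluster 1 (-1.78, -2.16 to -1.43) and 121 and 85.6 CPM in cluster 7 (-0.50, -0.91 to -0.10). In cluster 13 its 6 and 8 UMIs gave 27.6 and 21.7 CPM, with an interval that includes 0. Nxpe2 stood at 45.4 and 16.3 CPM in cluster 0 (-1.43, -2.02 to -0.86) and at 60.0 and 31.5 CPM in cluster 1 (-0.91, -1.55 to -0.31). In cluster 7, at 52.1 and 37.5 CPM, and in cluster 13, at 41.4 and 27.2 CPM, the intervals of Nxpe2 include 0. At 12 months Nxpe2 thus lay between 41.4 and 60.0 CPM in these 4 clusters, where Gm47782 went from 222 CPM to 1 UMI.

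In SM/J the clusters did not repeat the difference of the class as a whole. Gm47782 lay mostly in cluster 6 among the 3 SM/J clusters with 50 or more cells at both ages, at 138 and 96.8 CPM (-0.51, -0.90 to -0.14). It gave 6 and 5 UMIs in cluster 21 (4.83 and 2.17 CPM) and 0 UMIs at both ages in cluster 25, which at the floor of 3 UMIs allows up to 0.986 and 3.89 CPM. The single-cluster ratio of -0.51 stands beside -2.96 for the class.

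2610035D17Rik was higher at 20 months in cluster 6 of SM/J, at 26.2 and 50.9 CPM (0.93, 0.30 to 1.56), and in cluster 21, at 35.4 and 74.2 CPM (1.05, 0.57 to 1.54). In cluster 25, where it was most abundant, it stood at 108 and 106 CPM (-0.03, -0.39 to 0.33). Nxpe2 stood at 10.3 and 6.37 CPM in cluster 6, 10.5 and 15.2 CPM in cluster 21 and 15.8 and 22.0 CPM in cluster 25, and all 3 intervals of its ratio include 0.

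All members were low in cluster 26. At 20 months its 844 SM/J cells, with a median of 12491.5 UMIs, held 64.5% of the class's UMIs and gave 3 UMIs of Gm47782 (0.238 CPM), 11 of 2610035D17Rik (0.874 CPM) and 27 of Nxpe2 (2.14 CPM). The B cell genes Cd79a and Ms4a1 stood there at 2040 and 750 CPM, against 2000 and 582 CPM in cluster 6 at the same age. Fcer2a was at 1.19 CPM and Ighd at 10.9 CPM, against 141 and 546 CPM in cluster 6. The mean level of all 8 B cell markers, each scaled to its highest cluster, was lower in cluster 26. It was 0.381 there and 0.556 in cluster 6, over all libraries. The cycling cluster 20, with 69 SM/J cells and 14.8% of the class's UMIs at 20 months, gave 0, 0 and 5 UMIs of the 3 members.

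The 20-month levels of the clusters were also weighted by the clusters' 12-month shares of UMIs, over all clusters with cells at both ages. Some held few cells at 1 age, such as 1 cell in cluster 20 and 15 cells in cluster 26 of SM/J at 12 months. In BL/6 the log2 ratios so weighted were -3.90 for Gm47782, -1.12 for 2610035D17Rik and -0.99 for Nxpe2, close to the unweighted ones. In SM/J they were -0.54, 0.21 and 0.20, against -2.96, -1.98 and -1.29 unweighted. With 12-month clusters at the 20-month shares the SM/J values were -0.50, -0.056 and -0.18. With clusters 26 and 20 left out, an alternative added after the data had been seen, they were -1.0, 0.13 and 0.15. Clustering without the members gave -0.53, 0.25 and 0.33 at the 12-month shares. The weighting thus left the BL/6 ratios near their unweighted values and brought the SM/J ratios nearer to 0. Another mix of cells and another state of the same cells cannot be told apart, since the clusters themselves differed in size between ages.

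**Figure D3:**
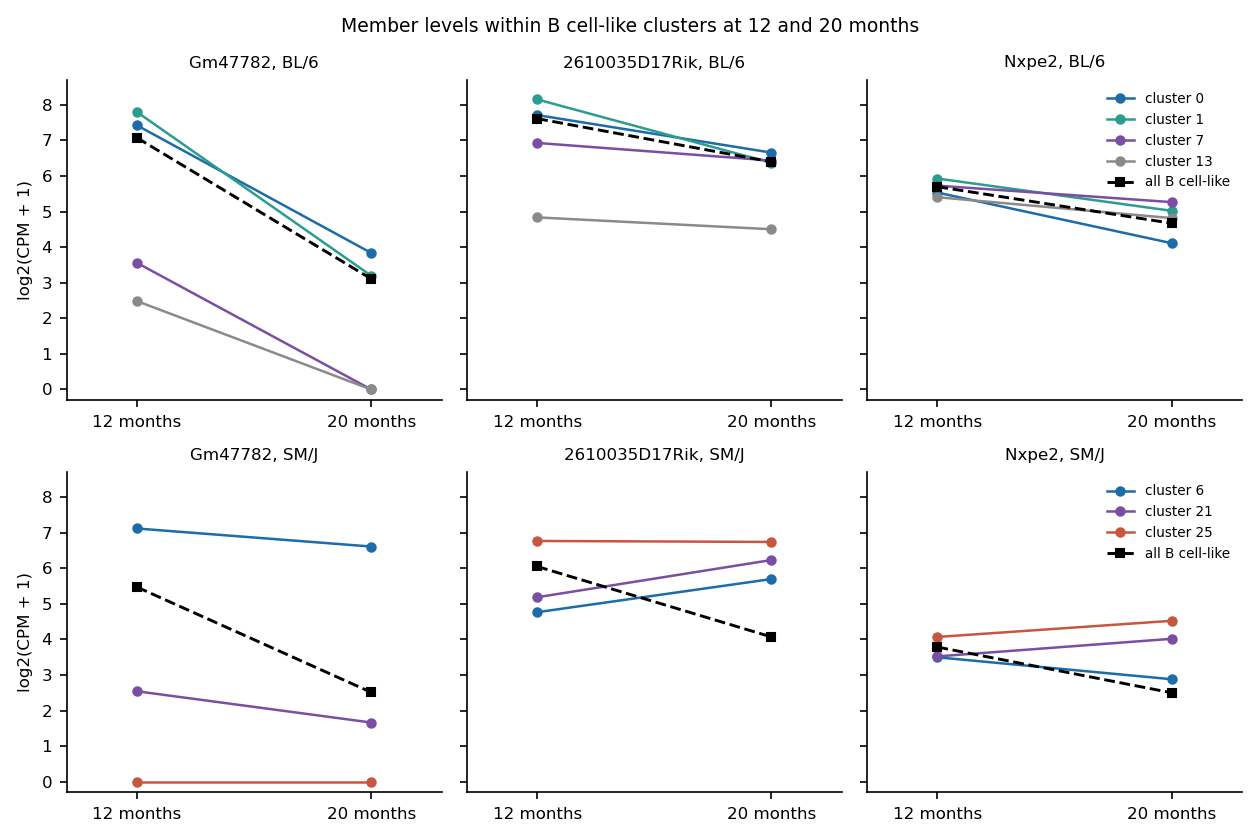
Member levels, as log2(CPM + 1), at 12 and 20 months within B cell-like clusters of at least 50 cells at both ages (coloured lines) and in all B cell-like cells (black, dashed), for BL/6 (top) and SM/J (bottom). In BL/6 all coloured lines slope down, while in SM/J the line of 2610035D17Rik in cluster 6 goes from 26.2 to 50.9 CPM as the dashed line slopes down.

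Genes of known B cell states were read beside the members. These lists were not independent of the samples, since earlier results were known. Of 6 follicular genes, 0 were 2-fold lower and 0 were 2-fold higher at 20 months in BL/6 (median log2 ratio -0.03), where Fcer2a stood at 224 and 203 CPM and Ighd at 572 and 606 CPM. In SM/J 2 of 4 that passed the filter were lower (median -1.45), Fcer2a at -3.05 and Ighd at -2.54. All genes passing had medians of 0.05 and -0.05.

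Of the other lists, 0 genes in BL/6 were 2-fold lower or higher among those passing, namely 2 marginal zone, 3 transitional, 1 B-1, 1 age-associated and 3 memory genes, while 0 germinal centre and 0 plasma cell genes passed. In SM/J 2 of 4 marginal zone genes were lower (Cr2 at -2.26 and Cd9 at -1.71) and 1 was higher (S1pr3 at 2.70), and 1 of 3 transitional genes was lower (Vpreb3 at -2.77). Of B-1 genes 0 of 4 were lower and 1 was higher (Ctla4 at 2.35), of memory genes 1 of 4 was lower (Nt5e at -1.81) and 1 higher (Cd80 at 1.08), and of 3 plasma cell genes Jchain was lower (-1.16) and Xbp1 and Prdm1 higher (1.85 and 1.27). The 1 germinal centre gene passing, Mki67, was higher (2.65), and the 1 age-associated gene, Fcrl5, stood at -0.85. Over all genes passing the filter, 0.162% in BL/6 and 3.69% in SM/J were 2-fold lower, and 0.263% and 3.63% were 2-fold higher.

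The strains were set side by side at equal age. At 12 months all members were lower in SM/J B cell-like cells, at a log2 ratio of SM/J over BL/6 of -1.60 (-1.79 to -1.42) for Gm47782, -1.56 (-1.72 to -1.41) for 2610035D17Rik and -1.92 (-2.24 to -1.60) for Nxpe2. At 20 months the values were -0.60 (-1.14 to -0.03), -2.33 (-2.55 to -2.11) and -2.17 (-2.55 to -1.78). Follicular-gene clusters differed by member: at 12 months Gm47782 was at 171 and 222 CPM in clusters 0 and 1 of BL/6 and at 138 CPM in cluster 6 of SM/J. 2610035D17Rik was at 209, 284 and 26.2 CPM in these clusters and Nxpe2 at 45.4, 60.0 and 10.3 CPM. At 20 months Gm47782 was higher in cluster 6 of SM/J (96.8 CPM) than in clusters 0 and 1 of BL/6 (13.3 and 8.17 CPM).

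The overlap of members in single cells was read in each library. In BL/6 at 12 months 184 of 405 cells with Gm47782 had 2610035D17Rik too (45.4%, 40.5% to 50.4%), against 39.1% (36.7% to 41.6%) of the other B cell-like cells, at median depths of 3654 and 3625 UMIs. In SM/J at 12 months it was 1 of 123 (0.813%, 0.0206% to 4.45%) against 19.2% (16.9% to 21.5%), at 3111 and 4502 UMIs. At 12 months the intervals thus overlapped in BL/6 and not in SM/J. At 20 months they overlapped in both strains, with 35.3% (14.2% to 61.7%) against 20.7% (18.1% to 23.4%) in BL/6. In SM/J the shares were 4.0% (0.488% to 13.7%) against 9.93% (8.49% to 11.5%), at median depths of 3267 and 9821 UMIs. In SM/J at 12 months the 2 genes were thus abundant in different clusters, Gm47782 in cluster 6 and 2610035D17Rik in cluster 25. Cells with Nxpe2 had 2610035D17Rik in 43.5% (37.8% to 49.3%) against 39.9% in BL/6 at 12 months, and in 30.4% (19.9% to 42.7%) against 16.7% in SM/J at that age, where the cells with Nxpe2 were deeper (7273 against 4051 UMIs).

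Across 17 sums of cluster and library with 50 or more cells, the Pearson r of log2(CPM + 1) was 0.76 between 2610035D17Rik and Nxpe2, 0.43 between Gm47782 and 2610035D17Rik and 0.28 between Gm47782 and Nxpe2. These sums share libraries and depth, and r is given as a description. Of 5637 genes the patterns most like that of Gm47782 were those of Phf21a (0.86), March3 (0.85), Tmem189 (0.81), Ms4a4c (0.81) and Rasgrp3 (0.80). For 2610035D17Rik they were Rras2, Zswim6, Slc38a1, Pgap1 and Ccdc88c, at 0.90 to 0.91. For Nxpe2 they were Fry, Atp7a, Mllt10, Ogt and Ralgapa1, at 0.89 to 0.90.

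Outside B cells the members parted. T cell-like cells, named from clusters 10, 12 and 14, held 2610035D17Rik at 112 (96.5 to 129) and 87.3 (76.7 to 99.0) CPM in BL/6 at 12 and 20 months and at 6.14 (2.94 to 11.3) and 20.5 (12.2 to 32.5) CPM in SM/J. The 20-month BL/6 level was close to that in B cell-like cells of the same library, and both SM/J levels were below the BL/6 ones. The log2 ratio of 20 over 12 months was -0.36 (-0.63 to -0.08) for BL/6. For SM/J it was 1.59 (0.51 to 2.68), resting on 10 and 18 UMIs. SM/J stood 18.2-fold below BL/6 at 12 months and 4.25-fold at 20 months. As background, 0.304% of 4277 genes in BL/6 and 0.173% of 2895 in SM/J were 2-fold lower at 20 months in these cells. Cluster 11, which carries Cd8a but was left unnamed, held 90, 19, 0 and 1 UMIs of 2610035D17Rik (99.9 CPM in the first library).

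The BL/6 T cell-like clusters lay at 83.2 to 136 CPM at 12 months and 69.4 to 117 CPM at 20 months. In SM/J the 18 UMIs at 20 months lay mainly in cluster 10, which is led by genes such as Cd8a, with 15 UMIs (45.2 CPM) against 3 (4.10 CPM) at 12 months. The B cell genes Cd79a, Cd79b and Ms4a1 together stood at 18.5 to 39.3 CPM in these droplets, against 3490 to 4200 CPM in B cell-like cells. Per 1000 UMIs of those 3 genes the 12-month BL/6 library had 6060 UMIs of 2610035D17Rik in T cell-like cells, against 55.8 in B cell-like ones. The SM/J libraries had 156 and 562 in T cell-like cells, against 17.7 and 3.75. The part of B cell RNA in the T cell-like counts was not tested.

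Few T cell-like cells held Gm47782 or Nxpe2. Gm47782 gave 17, 5, 13 and 2 UMIs there (10.1, 1.80, 7.98 and 2.28 CPM), in 5, 3, 3 and 2 cells, and 1 cell held 9 of the 17 and 1 cell 11 of the 13. The 12-month T cell-like levels were thus above the 20-month level in B cell-like cells of the same strain, on few cells. Nxpe2 gave 1, 3, 0 and 0 UMIs.

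In the monocyte classes of BL/6, 2610035D17Rik gave 45 to 113 UMIs and the other members at most 4, while in those of SM/J each member gave at most 11 UMIs. Classical monocyte-like cells held it at 20.9 (15.4 to 27.7) and 10.1 (7.34 to 13.5) CPM in BL/6 at 12 and 20 months, a log2 ratio of -0.99 (-1.56 to -0.41), and gave 1 and 0 UMIs in SM/J. Nonclassical ones held 31.8 (25.1 to 39.7) and 23.3 (19.2 to 28.0) CPM in BL/6, a ratio of -0.43 (-0.85 to -0.01), and gave 11 and 0 UMIs in SM/J. These classes are mainly clusters 3 and 5 in BL/6 and clusters 4 and 24 in SM/J, with the small cluster 18 among the nonclassical cells. In classical monocyte-like cells 1.16% and 1.42% of genes were 2-fold lower at 20 months in BL/6 and SM/J, and in nonclassical ones 0.954% and 0.343%. In both strains at once the shares were 0.708% and 0.0212%.

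Gm47782 gave 0 UMIs in classical monocyte-like cells of all 4 libraries, which, with 3 UMIs as the floor, allows up to 1.31, 0.671, 3.54 and 3.68 CPM (the exact Poisson upper limits are 1.61, 0.825, 4.35 and 4.52 CPM), and 1, 0, 9 and 2 UMIs in nonclassical ones. Nxpe2 gave 1, 1, 0 and 2 UMIs in classical and 4, 3, 8 and 1 in nonclassical cells. The B cell genes Cd79a, Cd79b and Ms4a1 summed to 324 CPM in the nonclassical cells of SM/J at 12 months, where Gm47782 and Nxpe2 gave 9 and 8 UMIs, and to 22.7 CPM in those of BL/6 at 12 months. The part of B cell RNA in those counts was not tested.

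**Figure D4:**
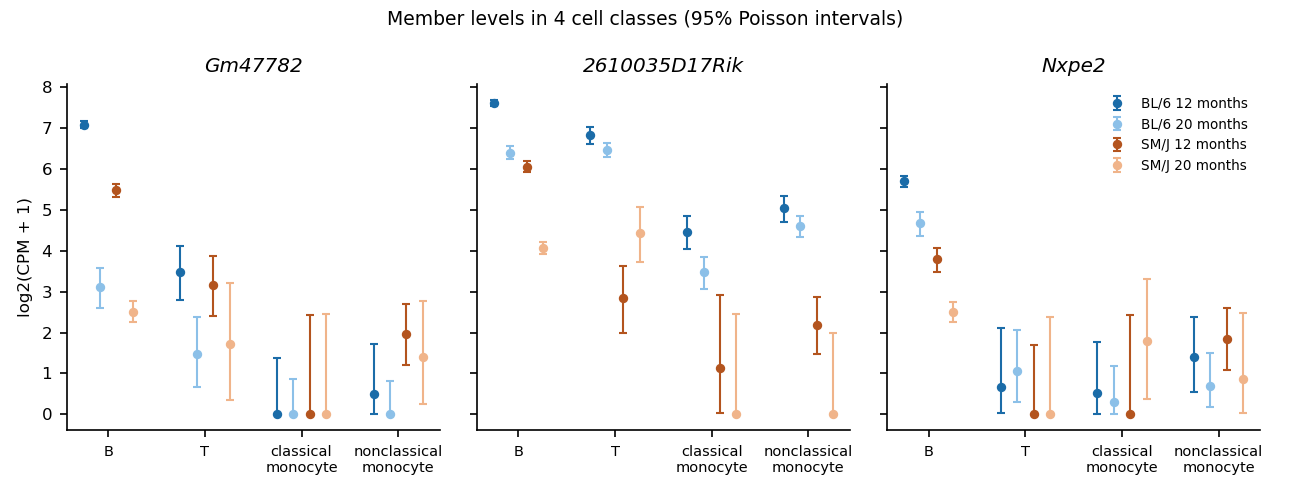
Member levels as log2(CPM + 1) with 95% Poisson intervals in B cell-like, T cell-like and monocyte-like cells of the 4 libraries. In BL/6, 2610035D17Rik stands at 112 CPM in T cell-like and 195 CPM in B cell-like cells at 12 months and at 87.3 and 83.4 CPM at 20 months, and Gm47782 in T cell-like cells reaches 10.1 CPM (BL/6, 12 months).

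Genes around the members were read for comparison. Gm31804 and Gm47780 overlap Gm47782 on the opposite strand, and gave 69, 0, 7 and 3 UMIs and 27, 1, 7 and 4 UMIs in B cell-like cells of the 4 libraries. They were thus highest in the library where Gm47782 was highest. The sources used here do not say whether strand was used in counting, so reads of overlapping genes may not be told apart. Beside 2610035D17Rik, Sox9 gave 0 UMIs in B cell-like cells of all libraries and Slc39a11, a zinc transporter gene, stood at 10.4, 15.5, 19.9 and 33.1 CPM. Rexo2 and Rbm7, next to Nxpe2, had log2 ratios between -0.23 and -0.09 in both strains, though Rexo2 did not pass the filter in BL/6. Gm5617, under the filter in both strains, stood at 0.45 in BL/6 and -0.44 in SM/J. Cadm1, also under it, gave 38, 11, 2 and 2 UMIs.

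The other measured NXPE family genes were read in the same cells. Nxpe3 stood at 86.3, 85.8, 64.6 and 39.6 CPM, with log2 ratios of -0.01 in BL/6 and -0.69 in SM/J. Nxpe4, which overlaps Nxpe2 on the opposite strand, stood at 19.4, 12.9, 9.67 and 4.61 CPM, with log2 ratios of -0.55 and -0.93 on levels under the filter, and Nxpe5 gave at most 4 UMIs. Nxpe2 and Nxpe3 passed the filter in BL/6, where 1 of the 2 was 2-fold lower (0.162% of all genes), namely Nxpe2, which was chosen for that difference. In SM/J 0 of 1 was (3.69% of all genes).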

How the data were processed

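The matrices, as deposited, contain unnormalised UMI counts for each gene in each cell. Per the file headers, Cell Ranger 7.0.1 wrote them. The submitters' processing notes name the build mm10 and Seurat 4.3.0. For the intron and strand settings of the counting, and for its annotation, nothing is given in the sources used here, so UMIs of these long genes may include reads from introns. The counts were used as deposited. Cells were kept with at least 500 UMIs, 200 genes and at most 10% mitochondrial UMIs, and 125 doublets called by Scrublet in scanpy 1.11.5 (expected rate 0.06) were left out. Cells were clustered by the Leiden method (resolution 1.0, 2000 variable genes, 30 principal components, 15 neighbours, seed 0), giving 27 clusters numbered from 0. Clusters were named from marker lists, and 3 stayed unnamed. UMIs were summed by class and library and scaled to CPM, with a pseudocount of 1 for log2 ratios. Intervals are exact 95% Poisson (levels), Clopper-Pearson (shares) and conditional binomial (ratios) ones. The ratios with their intervals were checked on simulated Poisson counts. Those counts lacked the uneven spread over cells described for Gm47782, so the check does not cover it. With 1 library per strain and age there is no test. In 20 and 28 cells of the 12-month libraries the leading tag was not one listed for that library, and these are in no aliquot. Depth ranges from 14250603 to 30627357 UMIs per library, and 3 UMIs set the floor for a count of 0.

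The members and lists were chosen with earlier results of these data known. Named genes are the members, the 5 genes most like each in pattern, the listed state and family genes and the 3 nearest genes on each side. The shared start and the spread over cells were looked at after values were seen, as was Pmaip1. Matches to the start were searched with BLAST 2.17.0 (word size 7, E value 1e-05). Sequences come from GENCODE M21 and RefSeq. TMM factors came from edgeR 4.0.16, in Python 3.11.15 with numpy 2.4.6 and scipy 1.17.1. Alternatives were other pseudocounts, scaling, mitochondrial limits, resolutions, cell gates, thinning, aliquots left out and cluster sets.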

Additional observations from a re-analysis of the deposited data

Results flagged for a closer look

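In T cell-like cells the log2 ratio of 2610035D17Rik for 20 over 12 months was -0.36 in BL/6 and 1.59 in SM/J, so the strains pointed in opposite directions. With clusters weighted by their 12-month shares, the strains also pointed apart in B cell-like cells, at -1.12 and 0.21 for 2610035D17Rik and at -0.99 and 0.20 for Nxpe2. With the 20-month shares the SM/J values were -0.056 and -0.18, so both strains then pointed the same way. The differences between strains were not tested, since each strain and age has 1 library.

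Some small classes that the report does not compare had members above the level in B cell-like cells of the same library. Nxpe2 stood at 28.3 CPM in basophil-like cells of BL/6 at 20 months (8 UMIs in 8 of 56 cells), at 131 CPM in those of SM/J at 12 months (8 UMIs in 5 of 15 cells) and at 151 CPM in those of SM/J at 20 months (7 UMIs in 4 of 11 cells), against 0 UMIs in the 40 basophil-like cells of BL/6 at 12 months. The B cell genes Cd79a, Cd79b and Ms4a1 gave 8, 2 and 3 UMIs in those 3 sets of cells, and the part of B cell RNA there was not tested. 2610035D17Rik stood at 73.4 CPM (28 UMIs in 16 of 49 cells) and 38.4 CPM (17 UMIs in 7 of 46 cells) in plasmacytoid dendritic cell-like cells from the 12-month and 20-month SM/J libraries, and at 82.8 and 24.6 CPM in those of BL/6. In erythroid cell-like cells 2610035D17Rik stood at 107 CPM in BL/6 at 20 months (4 UMIs in 2 of 5 cells) and Gm47782 at 126 CPM in SM/J at 12 months (9 UMIs in 1 of 14 cells).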

How the results depend on the processing

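In BL/6 every log2 ratio of 20 over 12 months in B cell-like cells stayed below 0 under the alternatives that gave a value, at -4.12 to -3.46 for Gm47782, -1.58 to -0.33 for 2610035D17Rik and -1.23 to -0.59 for Nxpe2. With an aliquot left out the ranges were -4.14 to -3.66, -1.38 to -1.11 and -1.21 to -0.86 in BL/6 and -3.10 to -2.79, -2.20 to -1.76 and -1.38 to -1.12 in SM/J. In BL/6 a pseudocount of 5 CPM gave -3.46 for Gm47782, a mitochondrial limit of 5% gave -1.42 and thinning -1.58 for 2610035D17Rik, and cluster 13 alone, the only one with no more than 90% of its cells from 1 strain, gave -0.33 for 2610035D17Rik and -0.59 for Nxpe2, with no other value from that setting.

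In SM/J Gm47782 stayed below 0, and the other members did not. For Gm47782, 2610035D17Rik and Nxpe2 in that order, the SM/J values were -2.32, -1.76 and -0.88 with a pseudocount of 5 CPM, -3.34, -0.35 and -0.81 with cells gated by markers, -2.16, -0.79 and -0.85 as a mean of per-cell shares, and -2.22, -0.37 and -0.87 after thinning. A 5% mitochondrial limit gave -2.51 and -0.92 for the first 2 of them. The direction of 2610035D17Rik and Nxpe2 turned with each strain clustered alone (-1.62, 0.85 and 0.26), without clusters 26 and 20 (-1.0, 0.13 and 0.15) and with clusters of 50 cells at both ages (-0.94, 0.13 and 0.16). At cluster shares held fixed, 0.21 and 0.20 for these 2 genes became -0.056 and -0.18 with the 20-month shares. The settings without clusters 26 and 20, with clusters of 50 cells and with the 20-month shares were added after the data had been seen, and the cause of the turn with each strain clustered alone was not tested.

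Thinning moved low levels outside B cells. Gm47782 went to 18.2, 0, 2.98 and 9.85 CPM in T cell-like cells, and among nonclassical monocyte-like cells it went to 0 in both 12-month libraries and 5.88 CPM in SM/J at 20 months. 2610035D17Rik went to 73.4 CPM in T cell-like cells of BL/6 at 20 months and to 8.85 CPM in classical monocyte-like cells of SM/J at 12 months, and Nxpe2 to 0 CPM wherever it moved. With only the limit of 100 UMIs, 44 genes in BL/6 and 461 in SM/J were 2-fold lower, against 8 of 4935 and 184 of 4981 under the full filter. The number of genes passing the looser limit is not given here, so these counts cannot be compared as shares. No paired analysis was possible because each strain and age has 1 library.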
